A study of Mus musculus with 6 samples.

Results

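The genes of the tricarboxylic acid (TCA) cycle and of pyruvate metabolism were examined in microglia sorted from mice after acute ischemic stroke (AIS). The 39 genes were taken from a list of enzymes, regulators and carriers of the pathway, and their probes were found by matching the transcript accession printed on the array to RefSeq gene symbols. All 39 had at least 1 tested probe, among 18222 named genes with a tested probe, and each gene was described by its brightest tested probe and then by its other probes. The series compared 3 control samples with 3 mPGC-1α samples, each hybridized to 1 Agilent mouse expression array, and its purpose was to compare microglia with and without overexpression of PGC-1α after AIS. PGC-1α is a transcriptional coactivator known for its role in mitochondrial biogenesis. Control samples came from PGC-1αf/f mice, in which PGC-1α and eGFP are carried on an allele with loxP sites, and mPGC-1α samples came from mice with the same allele and a tamoxifen-inducible Cre expressed from Cx3cr1. Both groups were on a C57BL/6 background and had AIS, the labels give every sample as male and 10 weeks of age, and cells were taken by magnetic selection for P2RY12, a microglial surface receptor. Cx3cr1 is active in other mononuclear phagocytes too, and the study's methods place an interval between tamoxifen and stroke so that overexpression is kept to microglia. No source used here states whether the 3 samples of a group came from separate animals, so p-values measure only the spread between these samples, and the number of arrays limits the precision.

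Pyruvate made by glycolysis enters mitochondria through the mitochondrial pyruvate carrier. There the pyruvate dehydrogenase (PDH) complex turns it into acetyl-CoA, a step that PDH kinases switch off and PDH phosphatases switch on. The TCA cycle then oxidizes the acetyl group and passes electrons to the respiratory chain. Carriers move its intermediates to the cytosol, and malic enzymes turn malate into pyruvate. In microglia, as in macrophages, the balance between glycolysis and this pathway is known to shift with activation.

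The labels were checked first. Ppargc1a, which encodes PGC-1α, gave log2 levels of -1.05, -0.55 and -0.53 in controls and -1.08, -0.86 and -1.12 in mPGC-1α, a log2 level being the log2 signal minus the log2 of that array's 75th percentile. The groups overlapped, and the log2 difference, mPGC-1α minus control, was -0.31 (SE 0.24, limma adjusted p = 0.798). A second Ppargc1a probe differed by -0.41 (limma adjusted p = 0.769). The files used here do not show whether either probe reads the transgene. Cx3cr1, the locus that drives Cre, was lower on every mPGC-1α array at its tested probe (log2 difference -1.23, limma adjusted p = 0.684). A second Cx3cr1 probe had too many marked spots to be tested. With these kept, its groups overlapped and the log2 difference was -0.33. Control array 2 stood apart from the other arrays, which went against their label of male: the log2 level of Xist, the RNA that silences one X in females, was -4.83 there and -0.57 to -0.11 on the other 5 arrays, and 4 of 7 Y-linked probes passed the background call only there. Control array 2 thus differs from the rest in the sex-linked genes, and values without it are given beside some of the results. Of the genes that mark microglia, 10 of 12 were tested, with 5 higher and 5 lower in mPGC-1α and summed linear levels of 202 to 235 in controls and 208 to 238 in mPGC-1α. Some markers of other cells moved with the groups. Summed levels of 10 oligodendrocyte genes were 16.8 to 25.0 in controls and 30.2 to 44.2 in mPGC-1α. Those of 9 astrocyte genes were 10.5 to 16.1 and 17.4 to 56.6. Neither list overlapped. Sums of 7 endothelial and mural genes, 6 higher and 1 lower, were 32.7 to 32.8 and 33.4 to 35.2, without overlap but close together. The mean log2 level of these 7 genes was -1.44 to -1.30 per array. The sums of 15 neuronal genes, 14 of them higher, overlapped at 48.2 to 76.8 and 75.3 to 89.8. So did those of 10 monocyte and macrophage genes, 8 of them lower, at 47.6 to 78.3 and 37.8 to 81.1. Sums weigh bright genes most, such as Snap25 among the neuronal genes (log2 levels of 5.22 to 6.10). By gene, the median log2 difference was 0.83 for neuronal, 0.87 for oligodendrocyte and 0.97 for astrocyte genes. It was 0.26 for endothelial and mural, -0.19 for monocyte and macrophage and 0.05 for microglial genes. The part of the other cells in the member results was not tested. In bulk samples, fewer cells of a type and less RNA per cell cannot be told apart.

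No member gene differed between the groups after adjustment. With limma, 0 of 40745 tested probes had an adjusted p under 0.05 (0% called), and the smallest adjusted p of a member was 0.684. Of the 39 brightest probes, 18 were higher and 21 lower in mPGC-1α. Their median log2 difference was -0.08, whereas the median over all 18222 named genes was 0.11. Quantile normalization put 13 higher and 26 lower, and the median of the members took either sign under other settings, from -0.18 to 0.07. Before adjustment, 3 members had p under 0.05, all lower in mPGC-1α (Idh1, Idh3a and Slc25a11), against 2.68% of all named genes in that direction. None was higher with such a p, against 3.41% of all named genes. A block by array number, a pairing that no source used here states, was also fitted. With it, Idh1, Idh3a and Slc25a10 were lower and Pdk4 higher at an unadjusted p under 0.05. Over all named genes, 10.3% had such a p with that block, and 5.01% had it and were lower. Slc25a11 was not among the members with such a p (limma adjusted p of Pdk4 = 0.416). Among 19 members measured on all 6 arrays, the groups did not overlap for 1, Slc25a10, which was lower (3.45% of all named genes so measured). No member was higher without overlap (8.48% of all named genes so measured). For the other 20 members at least 1 array had a spot that the scanner software marked as an outlier, which was left out; 15 of these lacked mPGC-1α array 3 and 6 lacked control array 3.

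**Figure D1:**
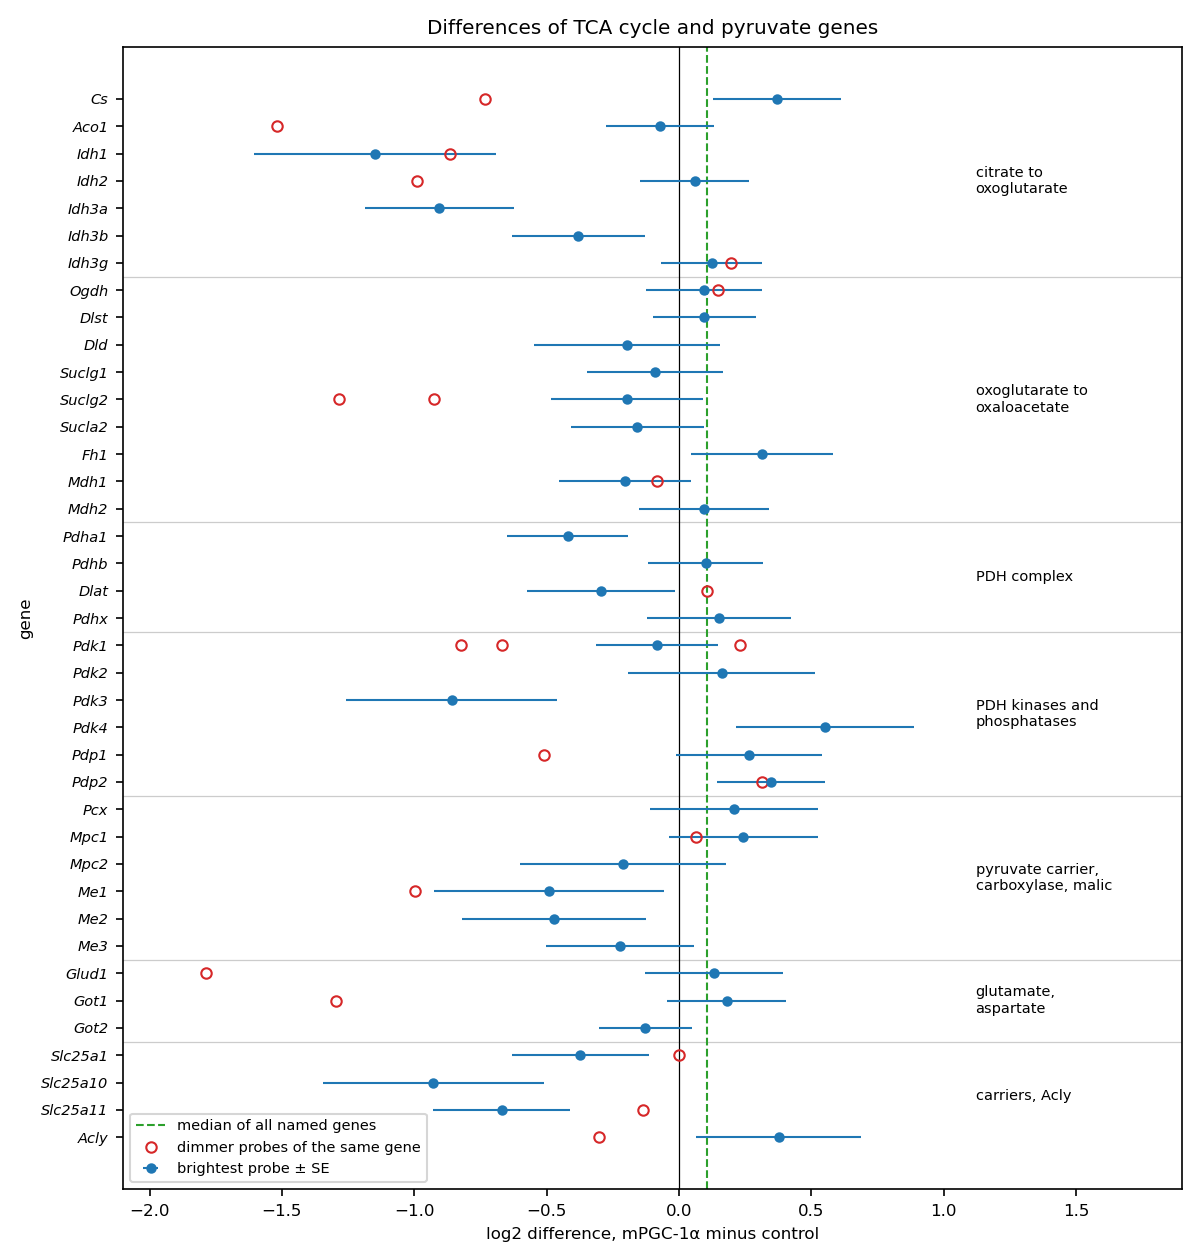
The log2 difference, mPGC-1α minus control, is plotted on the horizontal axis for each of the 39 genes, grouped by role; filled points are brightest probes with their SE, open circles the 22 dimmer probes, and the dashed line the median of all named genes, 0.11. Idh1 lies lowest among the brightest probes at -1.15 and Pdk4 highest at 0.55, and the open circles of Glud1, Aco1 and Got1 lie far to the left of their filled points.

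The enzymes that take citrate to oxoglutarate held the lowest single difference, that of Idh1. Among the 7 genes the median log2 difference was -0.07 (3 higher, 4 lower). Idh1 encodes the cytosolic NADP-dependent isocitrate dehydrogenase. Its log2 levels were -0.01, -1.71 and 0.19 on control arrays 1 to 3 and -1.65, -1.86 and -1.46 on mPGC-1α arrays 1 to 3. Control arrays 1 and 3 were high, and control array 2 lay among the mPGC-1α arrays, so the groups overlapped. The log2 difference was -1.15 (SE 0.46, limma adjusted p = 0.686), and an exact two-sided permutation test gave p = 0.3, where 0.1 is the smallest that 3 against 3 allows. The difference was -0.89 on the slide that held arrays 1 and 2 of each group and -1.66 on the slide that held array 3. Without control array 2 it was -1.75 (limma adjusted p = 0.00365). The second Idh1 probe differed by -0.86.

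Idh3a encodes the catalytic subunit of the NAD-dependent isocitrate dehydrogenase of the mitochondrial cycle. Its log2 levels were 0.51, 0.29 and 0.88 in controls and -0.56 and -0.13 in mPGC-1α, with the spot on mPGC-1α array 3 marked. All measured control arrays lay above both measured mPGC-1α arrays. The log2 difference was -0.90 (SE 0.28, limma adjusted p = 0.684, exact permutation p = 0.1), -0.78 with the marked spot kept, and -1.04 without control array 2. Idh3b and Idh3g, which encode the other subunits of that enzyme, differed by -0.38 and 0.12 on the log2 scale, and Idh3b by -0.63 without control array 2. Cs, the citrate synthase that opens the cycle, had log2 levels of 2.94, 3.59 and 3.33 in controls and 3.59 and 3.72 in mPGC-1α, a log2 difference of 0.37 (SE 0.24, limma adjusted p = 0.768, exact permutation p = 0.2) and of 0.52 without control array 2. Its measured groups did not overlap, with control array 2 and mPGC-1α array 1 equal to 2 decimals. With the marked spot of mPGC-1α array 3 kept (3.42), the groups overlapped and the log2 difference was 0.29. Aco1, the cytosolic aconitase, differed by -0.07. Its dimmer probe differed by -1.52 (SE 0.44, limma adjusted p = 0.684), and by -1.98 without control array 2. Idh2, the mitochondrial NADP-dependent enzyme, had log2 levels of 2.56 (array 2) and 2.45 (array 3) in controls, and these overlapped the mPGC-1α values of 2.50, 2.69 and 2.50 (log2 difference 0.06, SE 0.20, limma adjusted p = 0.960).

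From oxoglutarate to oxaloacetate, differences were small at the brightest probes. Of 9 genes, 4 were higher and 5 lower, the median log2 difference was -0.09, and the range ran from -0.20 to 0.31. Fh1, the fumarase, had the highest value at 0.31 and Mdh1, the cytosolic malate dehydrogenase, the lowest. With both arrays numbered 3 marked, the log2 level of Fh1 was 1.18 and 1.61 in controls against 1.69 and 1.72 in mPGC-1α, so its measured groups did not overlap either (limma adjusted p = 0.815). With the marked spots kept, control array 3 was the highest at 1.88, the groups overlapped and the log2 difference was 0.11. Ogdh and Dlst, subunits of the oxoglutarate dehydrogenase complex, differed by 0.09 and 0.10. Dld, a subunit this complex shares with PDH, differed by -0.20. The succinyl-CoA ligase genes Suclg1, Suclg2 and Sucla2 differed by -0.09, -0.20 and -0.16, and Mdh2, the mitochondrial malate dehydrogenase, by 0.09. Without control array 2, Suclg2 differed by -0.51, and Dld, with 1 control array left, by -0.59.

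In the PDH complex the median log2 difference over 4 genes was -0.10 (2 higher, 2 lower). Pdha1 and Pdhb, which encode the subunits of its first enzyme, differed by -0.42 and 0.10, Dlat, the acetyltransferase, by -0.30 and Pdhx, a structural component, by 0.15. Among the kinases and phosphatases that set its activity, the median over 6 genes was 0.21 (4 higher, 2 lower). Pdk4, a PDH kinase known as a target of PGC-1α, had log2 levels of -1.80, -0.93 and -0.85 in controls and -1.07, -0.17 and -0.68 in mPGC-1α. Each mPGC-1α array was above the control array of the same number, but the groups overlapped. The log2 difference was 0.55 (SE 0.34, limma adjusted p = 0.756, exact permutation p = 0.3) and 0.68 without control array 2. With 1 array left out it ranged from 0.25 (without control array 1) to 0.77 (without mPGC-1α array 1). Pdk3, another PDH kinase, which is named here after its values were seen, had log2 levels of -0.62 (array 2) and 0.75 (array 3) in controls and of -0.93, -0.59 and -0.86 in mPGC-1α. Among these measured arrays control array 3 alone was high, but control array 1, whose spot was marked and left out, read 0.35. With that spot kept the log2 difference was -0.95. The log2 difference was -0.86 (SE 0.40, limma adjusted p = 0.707), and -1.54 without control array 2, where control array 3 was the only control value left. Pdk1 and Pdk2 differed by -0.08 and 0.16, and the phosphatase genes Pdp1 and Pdp2 by 0.26 and 0.35.

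**Figure D2:**
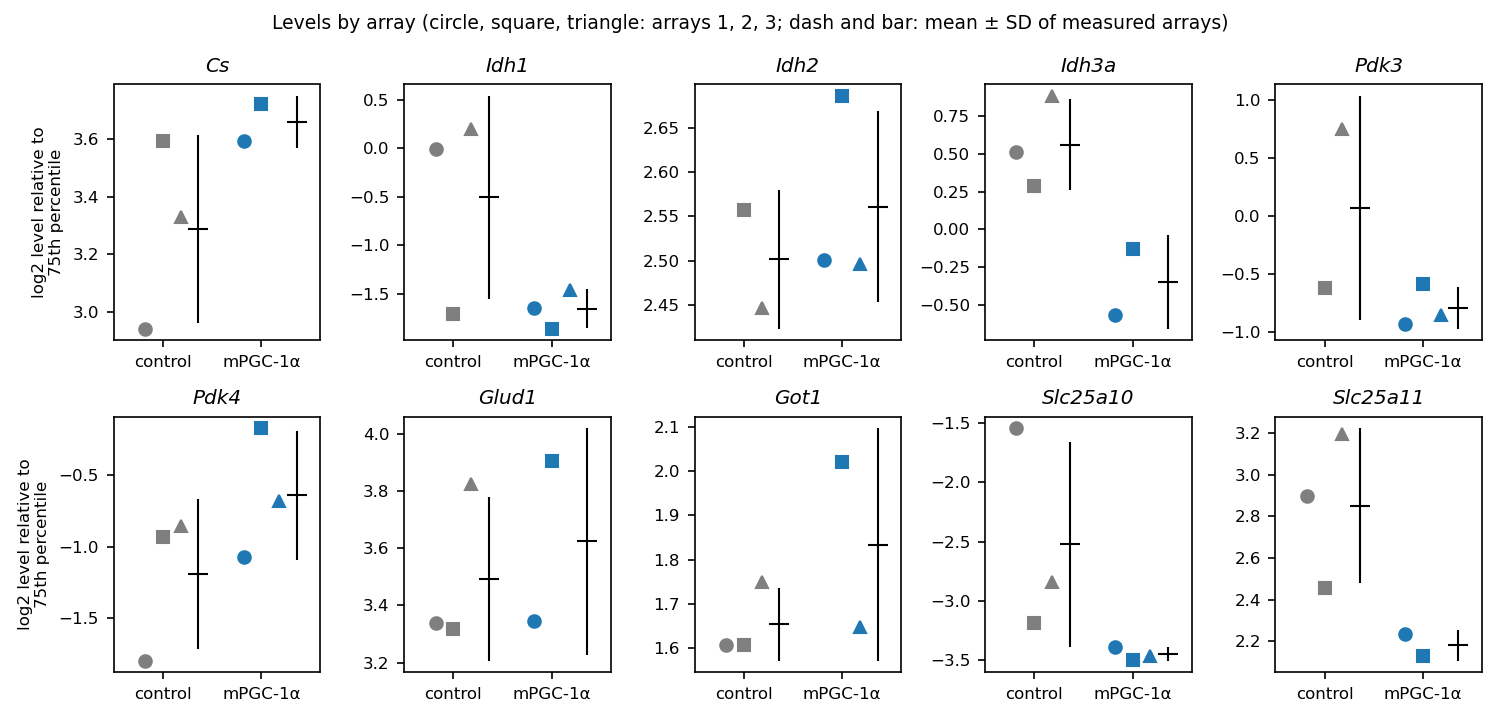
Log2 levels, scaled to each array's 75th percentile, are shown for 10 genes at their brightest probe, each panel with its own vertical axis; symbols mark array numbers, gray is control, blue is mPGC-1α, and dashes with bars are the mean and SD of the measured arrays. The square of control array 2 lies with the mPGC-1α arrays for Idh1, and the measured arrays of the groups do not overlap for Idh3a, Slc25a10 and Slc25a11, lower in mPGC-1α, and for Cs, higher. With marked spots kept, which are not drawn, the groups overlap for Slc25a11 and Cs.

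Genes that bring pyruvate into the pathway or return carbon from malate were mostly lower, without passing the test. The median log2 difference over the 6 genes was -0.22 (2 higher, 4 lower). Mpc1 and Mpc2, which form the mitochondrial pyruvate carrier, differed by 0.24 and -0.21, and Pcx, the pyruvate carboxylase, by 0.21. The malic enzyme genes Me1, Me2 and Me3 differed by -0.49, -0.47 and -0.22. Without control array 2, the log2 differences of Me1 and Mpc2 were 0.04 and 0.26, of the opposite sign, and each rested on control array 1 as the only control value left. In glutamate and aspartate metabolism, Glud1, the glutamate dehydrogenase, differed by 0.13 (SE 0.26, limma adjusted p = 0.929), and Got2, an aspartate aminotransferase, by -0.13. Got1, the cytosolic aspartate aminotransferase, had log2 levels of 1.61, 1.61 and 1.75 in controls and, with mPGC-1α array 1 marked, 2.02 and 1.65 in mPGC-1α. These groups overlapped (log2 difference 0.18, SE 0.23, limma adjusted p = 0.879).

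The carriers and Acly, the citrate lyase, had the lowest median of the role groups, -0.52 over 4 genes. The 3 carriers were lower and Acly was higher. Slc25a10, the mitochondrial dicarboxylate carrier, had log2 levels of -1.54, -3.18 and -2.84 in controls and -3.39, -3.50 and -3.46 in mPGC-1α. Every control array lay above every mPGC-1α array, control array 1 by far the most. The log2 difference was -0.93 (SE 0.42, limma adjusted p = 0.699), the exact permutation p was 0.1, and the difference without control array 2 was -1.26. Without control array 1 the difference was -0.44. Slc25a11, which exchanges oxoglutarate for malate, had log2 levels of 2.90, 2.46 and 3.20 in controls and 2.23 and 2.13 in mPGC-1α, with array 3 marked. The measured groups did not overlap, but with the marked spot kept (2.62) they did, and the log2 difference was -0.52. The log2 difference was -0.67 (SE 0.26, limma adjusted p = 0.686, exact permutation p = 0.2) and -0.87 without control array 2, whereas its second probe differed by -0.14. Slc25a1, the citrate carrier, differed by -0.37 and Acly, which splits exported citrate in the cytosol, by 0.38 (0.72 without control array 2, with 1 control array left).

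Second probes of the same genes gave other values. The 19 members with several tested probes had 22 dimmer probes, of which 7 were higher and 15 lower, with a median log2 difference of -0.59, against -0.10 for the dimmer probes of all genes. At an unadjusted p under 0.05, 9 of the 22 were lower (12.2% of all dimmer probes) and 0 higher (2.05%), and limma called none after adjustment. Of 15 dimmer probes measured on all 6 arrays, 4 were lower without overlap (9.82% of all such dimmer probes). These 4 belonged to Aco1 (log2 difference -1.52), Suclg2 (-0.93) and Pdk1, the last with a pair of probes (-0.67 and -0.82). Glud1 showed the widest split. Its dimmer probe had log2 levels of 2.87, 0.23 and 3.25 in controls and 0.27, 0.68 and 0.04 in mPGC-1α, a log2 difference of -1.79 (SE 0.66, limma adjusted p = 0.684) and of -2.73 without control array 2, while its brightest probe had 3.34, 3.32 and 3.82 in controls and 3.34 and 3.90 in mPGC-1α. Control arrays 1 and 3 were high at the dimmer probe and control array 2 was not.

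The same arrays stood out at the dimmer probe of Got1, with log2 levels of 1.73, -0.70 and 1.74 in controls and -0.18, -0.62 and -0.32 in mPGC-1α (log2 difference -1.30, SE 0.57, limma adjusted p = 0.692, and -2.11 without control array 2). The dimmer probe of Idh2 had 2.21, 0.75 and 2.39 in controls and 0.52, 0.84 and 1.01 in mPGC-1α (log2 difference -0.99, SE 0.40, limma adjusted p = 0.686, and -1.51 without control array 2). That of Cs had 2.03, 1.31 and 2.38 in controls and 1.14, 1.36 and 1.02 in mPGC-1α (log2 difference -0.73, SE 0.28, limma adjusted p = 0.685, and -1.03 without control array 2). In these 4 genes the probes differed in sign with a gap of at least 1 on the log2 scale. Within an array the signal of the dimmer probe relative to the brightest does not depend on scaling between arrays. For Glud1 this ratio was -0.47, -3.09 and -0.58 on control arrays and -3.08 and -3.23 on mPGC-1α arrays, on the log2 scale. Over the members, 6 of 22 dimmer probes had a difference lower than that of the brightest probe by 1 or more (27.3%, against 13.9% over all genes), and none was higher by as much. All 6 pairs carried the same transcript accession. At 10 of the 15 dimmer member probes measured on all 6 arrays, control arrays 1 and 3 lay above the other 4 arrays (66.7%, against 31.1% over all genes), a pattern chosen after the values were seen. At the brightest probes this held for 5 of 19 members (26.3%, against 9.96%). Which transcript each probe reads was not tested.

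**Figure D3:**
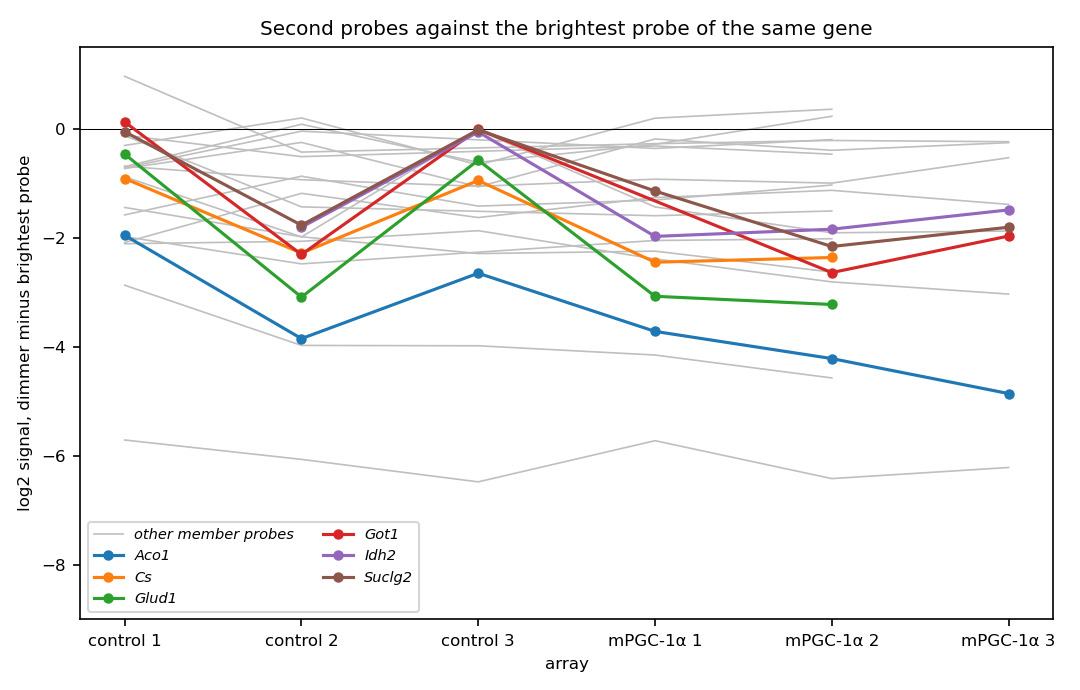
For each of the 22 dimmer probes, the log2 signal minus that of the brightest probe of the same gene is plotted on the vertical axis for each array, with lines joining the measured arrays of 1 probe. The 6 coloured probes, with a gap of 1 or more between probes, are high on control arrays 1 and 3 where measured, and for Glud1 the value is -0.47 on control array 1 and -3.09 on control array 2.

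Without control array 2, 2 members had a limma adjusted p under 0.05, Idh1 and Pdk3, against 2.93% of all named genes. Only Idh1 of these kept 2 control arrays. Pdk3 kept 1, which limma takes to vary as the other arrays do. At an unadjusted p under 0.05 there were 10 members, 7 lower and 3 higher, against 20.4% of all named genes, and 2 of the 10, Pdk3 and Acly, had 1 control array. In all, 8 members had 1 control array left. Of all named genes, 7.28% were then lower at an unadjusted p under 0.05, and the rest with such a p were higher. Of the 2073 probes with a limma adjusted p under 0.05 in this setting, 1946 were lower and 127 higher. Among called probes, a lower level was thus the general direction without that array. The median log2 difference over all named genes was then 0.22.

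**Figure D4:**
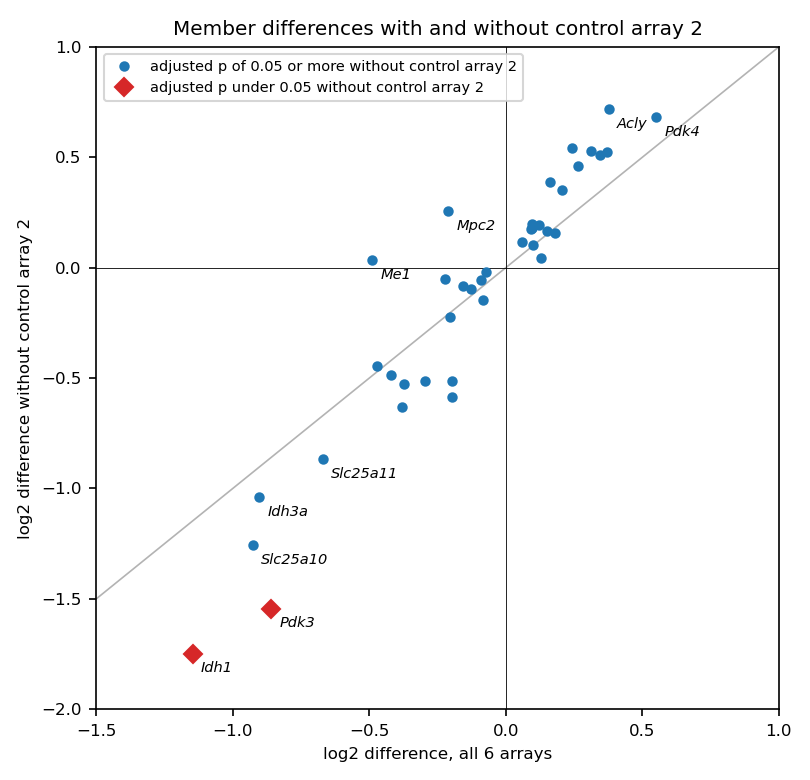
The log2 difference of each member with all 6 arrays (horizontal axis) is plotted against that without control array 2 (vertical axis), with the line of equal values. Idh1 at -1.75 and Pdk3 at -1.54 are the members with an adjusted p under 0.05 without that array, Pdk3 with 1 control array left, and Me1 and Mpc2 lie on opposite sides of 0 on the 2 axes.

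The other genes of the pathway had log2 differences from -0.92 to 0.76. Of 33 listed, 30 were tested, 16 were higher and 14 lower, the median was 0.03, and limma called none, with none at an unadjusted p under 0.05. The succinate dehydrogenase genes Sdha, Sdhb and Sdhc differed by -0.14, 0.22 and -0.08 on the log2 scale, whereas Sdhd had too many marked spots to be tested. Acod1, which makes itaconate from a cycle intermediate in activated macrophages, had log2 levels of 2.22, -0.61 and 3.38 in controls and 0.38, 1.92 and -0.08 in mPGC-1α. Its arrays were widely spread in both groups, and the log2 difference was -0.92 (SE 0.89, limma adjusted p = 0.834), and -2.06 without control array 2. The highest was Slc25a18, a mitochondrial glutamate carrier, at 0.76 (SE 0.36, limma adjusted p = 0.710), named here after its values were seen. Of 20 dimmer probes of these genes, 4 were lower at an unadjusted p under 0.05 (12.2% of all dimmer probes), for Sdha, Gpt2 and Slc25a12. For Gpt, 1 was higher (2.05% of all dimmer probes). The lowest was a probe of Slc25a12, an aspartate/glutamate carrier (log2 difference -2.43, SE 0.78, limma adjusted p = 0.684). At that probe control array 2 (-2.89) lay among the mPGC-1α arrays (-3.31 to -2.83), and the brightest Slc25a12 probe differed by -0.22.

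Promoters of the members were searched on both strands for a motif of the estrogen-related receptors, TNAAGGTCA, and the NRF-1 site in the 250 bases before each start site (RefSeq, GRCm38.p6). Over all 32851 promoters 1.14% and 0.782% held them, and 0 of 47 promoters of the 36 members found there held either, which says only that these letters are not in these windows.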

How the data were processed

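RNA of P2RY12-selected microglia was hybridized to 1-colour Agilent arrays, and the authors extracted spots with Agilent Feature Extraction 11.5.1.1 and normalized them in GeneSpring. The deposited scanner files hold processed spot intensity, background-subtracted by that software, and the deposited series table holds log2 values normalized by the authors. Deposited spot marks and background calls were used as filters. The labels give the dye as Cy3 in one field and Cy5 in another, and the 1 channel present was used. Here, log2 intensity minus the 75th percentile of each array over all spots of non-control probes was computed, outlier-marked spots were then left out, and replicate spots were averaged. Testing required a probe to be well above background on all unmarked arrays (at least 2) of at least 1 group, with at least 2 values per group. Of 56605 probes, 33767 were named by accession through RefSeq, and 40745 were tested, 3750 of them with a missing value.

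Between 71.0% and 86.5% of spots per array were well above background, 549 to 4931 spots were marked, and none was saturated. Marked spots were bright, with median intensities per array of 9759 to 15147, against 115 to 221 for unmarked spots. Control array 3 (3010) and mPGC-1α array 3 (4931) had the most. Leaving marked spots out thus fell mainly on bright probes and on those arrays. The arrays were on 2 slides, with both arrays numbered 3 apart from the rest, and had 1 scan day. Groups were compared with limma 3.58.1 in R 4.3.3 (intensity trend, Benjamini-Hochberg over all tested probes, threshold 0.05, two-sided), which was tested on simulated data, and with exact permutation tests of single probes. A missing array was dropped from the fit of its probe. Arrays of the same number in the labels deviated together (r = 0.247, 0.224 and 0.171), while pairs of unlike number had r from -0.34 to 0.03. No source used here states that the numbers pair samples, and both arrays numbered 3 shared a slide. A replicate block by number was run as an alternative. Since its pairing was read from these same data, its p-values are not separate support. Values by array and full statistics are given for members with an unadjusted p under 0.05, for those whose groups did not overlap on all 6 arrays, for Cs, Idh3a and Pdk4, and for those whose probes differed in sign with a gap of at least 1 (at both probes). The member list, the other lists and the rules were chosen with earlier results of these data known. A further gene of the other pathway list is counted but not reported by name here.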

Additional observations from a re-analysis of the deposited data

How the results depend on the processing

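Other normalizations, filters, marked spots kept, slide or replicate blocks, no intensity trend and each array left out were run. No other pathway gene was called under any of them. The median log2 difference of the members, -0.08, ranged from -0.18 (mean of all probes) to 0.07 (without mPGC-1α array 1), so its sign is not stable, and it was 0.02 with the replicate block. Genome-wide, the replicate block, which assumes a pairing by number, called 1 probe and no member (Idh1 limma adjusted p = 0.162). With 1 array left out, calls ranged from 0 to 2073 probes (8 without mPGC-1α array 2, 2073 without control array 2), called members from 0 to 2, and members with an unadjusted p under 0.05 from 1 to 10. Over all named genes, 2.84% to 3.94% had such a p in the settings with 1 member, and 20.4% in the setting with 10. Without a filter on dim probes 5 members had such a p, against 5.34% of all named genes. The 3 alternatives chosen after seeing the data were the percentile over unmarked spots only, the same with a replicate block (1720 probes, 1 member, Idh1, and 5 members with an unadjusted p under 0.05), and quantile normalization without control array 2 (2088 probes, 4 members and 10 members). Over all named genes, 11.8% had an unadjusted p under 0.05 with the percentile over unmarked spots and replicate block. With quantile normalization without control array 2 the share was 18.6%. The log2 difference of Glud1 reversed to -0.051 with quantile normalization, -0.092 with normexp, -0.22 with quantile normalization without control array 2, -0.15 without mPGC-1α array 2 and -1.04 as the mean of all probes. That of Idh2 reversed to -0.0031 and that of Got1 to -0.0057 without mPGC-1α array 2, and as means of all probes to -0.63 and -0.65, with Cs at -0.30. With 1 array left out, Glud1 ranged from -0.15 to 0.41, Idh2 from -0.0031 to 0.11 and Got1 from -0.0057 to 0.36. In the same settings Cs ranged from 0.20 to 0.52, Idh3a from -1.12 to -0.69 and Slc25a11 from -0.87 to -0.50. Causes were not tested. The stricter filter tested 19 members only. Normexp used the median spot signal.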
